A study of Mus musculus with 6 samples.

Results

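The genes described here are the odorant receptors (ORs) of mouse chromosome 9 named Olfr871 to Olfr985, taken by number from the transcript names, without Olfr907 and without names that carry the pseudogene suffix. The rule gave 79 genes of the 24661 in the files, and 78 of them are among the 1086 intact ORs (OR genes not marked as pseudogenes by name or by the annotation). The exception, Olfr908, is annotated as a polymorphic pseudogene and entered the comparison over all genes only. Olfr891 and Olfr926 had no counts in any mouse and were not tested. RNA-Seq was performed on the whole olfactory mucosa of 3 wild-type mice and 3 mice lacking both receptor transporting proteins (RTP1,2DKO, genotype RTP1 and RTP2 -/-). All were of the C57BL/6 strain and at postnatal day 21. In the mutant line the coding sequences of Rtp1 and Rtp2 had been replaced in embryonic stem cells of mixed 129 and C57BL/6 origin, and the line was backcrossed to C57BL/6, so sequence of the first strain may remain around the targeted genes. The groups were made of littermates matched for sex.

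ORs are G protein-coupled receptors, and each mature olfactory sensory neuron expresses a single OR allele out of the whole repertoire. The receptor is trafficked to the cilia, where it couples to the olfactory G protein, adenylyl cyclase 3 and a cyclic nucleotide-gated channel, and its protein also takes part in stabilizing the choice of the OR gene through a feedback signal. With RTP1 or RTP2 present, many ORs reach the plasma membrane in larger amounts. In RNA from the whole tissue, the level of an OR depends on how many neurons chose it and on how much mRNA each of these neurons holds, and fewer cells cannot be told apart from less RNA per cell.

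The genes were not all in a single cluster. In the GENCODE annotation of GRCm38, 76 of the 79 lay at chr9:37745106-40130184, and the other 3 (Olfr871, Olfr872 and Olfr873) lay at chr9:20212207-20303599. The large block also held 15 intact ORs that are numbered outside the range or left out by the rule, Olfr907 among them. Of the members, 55 were on the plus strand and 24 on the minus strand. A single coding exon was annotated in 75 genes, while 69 genes had several exons in all. The 78 intact proteins had 307 to 326 residues (median 311).

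Promoter windows (250 bases before to 50 bases after the annotated start, RefSeq, GRCm38.p6) were found for 69 members. For only 15 of these did the RefSeq start lie within 100 bases of the GENCODE start of the same gene, so the windows of the others may not be promoters. The windows of Olfr910, Olfr912 and Olfr921 are shown because their RefSeq and GENCODE starts matched within 100 bases, though not exactly. In addition, these 3 members, whose proteins are 80.6 to 96.4% identical, all fell in the RTP1,2DKO mice under both normalizations described below. All are on the plus strand, at chr9:38537632-38537931, chr9:38579994-38580293 and chr9:38772838-38773137, and capitals mark TATAAA on either strand.
Olfr910: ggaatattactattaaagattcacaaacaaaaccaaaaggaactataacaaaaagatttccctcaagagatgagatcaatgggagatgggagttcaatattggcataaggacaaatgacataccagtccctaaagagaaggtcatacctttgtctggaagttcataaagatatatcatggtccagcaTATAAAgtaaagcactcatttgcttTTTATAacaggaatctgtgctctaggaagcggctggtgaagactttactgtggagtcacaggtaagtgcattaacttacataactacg
Olfr912: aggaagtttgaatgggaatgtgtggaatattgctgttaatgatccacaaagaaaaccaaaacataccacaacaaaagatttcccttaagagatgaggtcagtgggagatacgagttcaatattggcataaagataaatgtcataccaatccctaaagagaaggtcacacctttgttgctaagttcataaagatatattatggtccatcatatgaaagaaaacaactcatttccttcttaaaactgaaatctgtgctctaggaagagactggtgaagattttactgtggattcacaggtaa
Olfr921: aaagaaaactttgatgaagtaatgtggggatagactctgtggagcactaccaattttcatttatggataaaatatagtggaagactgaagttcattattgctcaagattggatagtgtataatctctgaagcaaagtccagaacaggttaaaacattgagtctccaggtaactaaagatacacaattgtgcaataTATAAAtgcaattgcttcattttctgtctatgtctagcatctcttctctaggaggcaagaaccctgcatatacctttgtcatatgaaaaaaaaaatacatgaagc
TATAAA was present in the windows of Olfr910, where it began at position -63 with a second match on the opposite strand, and of Olfr921, where it began at position -55. These positions are counted from the RefSeq start and would differ if counted from the GENCODE start. These letters were absent from the window of Olfr912, although 87.3% of the 275 bases that aligned with Olfr910 were identical. TATAAA was found in 41.4% of the 70 member windows, in 41.2% of the windows of intact ORs and in 13.6% of all RefSeq promoters. The homeodomain core TAATTA, also searched on both strands, was found in 18.6%, 18.6% and 5.29% of them.

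The 6 libraries held between 31125360 and 41636928 estimated counts, of which 0.7202 to 1.124% were on intact ORs. Rtp1 was at 20522, 25301 and 13543 normalized counts in the wild-type mice and at 90.6, 85.5 and 108.8 in the RTP1,2DKO mice, as the genotype labels state. Of the 6 mature sensory neuron markers, 5 were lower in the RTP1,2DKO mice (all but Gng13, adjusted p = 0.086, which passed at 0.029 with the replicate number as a block), and the summed level was 149903 to 173877 normalized counts in wild-type and 76147 to 82822 in RTP1,2DKO mice. Of the 3 immature neuron markers, Gap43 and Gng8 rose, and the summed level was 12070 to 14703 in wild-type and 16023 to 16600 in RTP1,2DKO mice. No marker of sustentacular cells, basal cells, ciliated cells, glands, vomeronasal neurons or blood passed the test, although the sum of the 3 globose basal cell markers was 1080 to 1374 in wild-type and 1634 to 1973 in RTP1,2DKO mice. All these marker values refer to size factors over all genes, and the part of the cell composition in the changes of the ORs was not tested.

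In the comparison over all genes, the members were mostly lower in the RTP1,2DKO mice. Of the 77 members that had at least 1 count in some mouse, 26 fell, 1 rose (Olfr959) and 50 did not pass the test (edgeR quasi-likelihood test, Benjamini-Hochberg adjusted p under 0.05). The share called was 3.61% among all 22152 genes tested (0.460% up and 3.15% down) and 42.7% among the 1078 intact ORs (4.36% up and 38.3% down), so that 33.8% of the members down is close to the share among intact ORs. The median log2 fold change was -1.14 over the members and -1.08 over all intact ORs, and the quartiles were -2.22 and -0.08 against -1.83 and 0.18. The normalized counts of the groups did not overlap for 37 of the 77 members that were lower and 5 that were higher, against 9.24% and 7.17% of all genes. The share among intact ORs was not computed on this scale, so these counts do not set the members apart from other ORs.

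To ask how the members changed relative to other ORs, the counts were also normalized by the intact ORs alone. Of the 76 members tested, 16 were overrepresented, 26 underrepresented and 34 did not pass the test in RTP1,2DKO mice. These are 21.1% and 34.2% of the members, against 29.1% up and 25.9% down (55.0% in all) over the 1078 intact ORs. The median log2 fold change of the members was -0.22, with quartiles of -1.25 and 0.81, and that of all intact ORs was -0.11, with quartiles of -0.87 and 1.16. The groups did not overlap for 20 members that were higher and 25 that were lower, against 30.9% and 29.3% of intact ORs. When the libraries were instead scaled to their total on intact ORs, the median of all intact ORs shifted by -0.78 and the split became 7 up and 36 down. All 26 underrepresented members were also called down with that scaling, but only 7 of the 16 overrepresented ones were called up: Olfr873, Olfr901, Olfr917, Olfr935, Olfr959, Olfr968 and Olfr970.

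**Figure D1:**
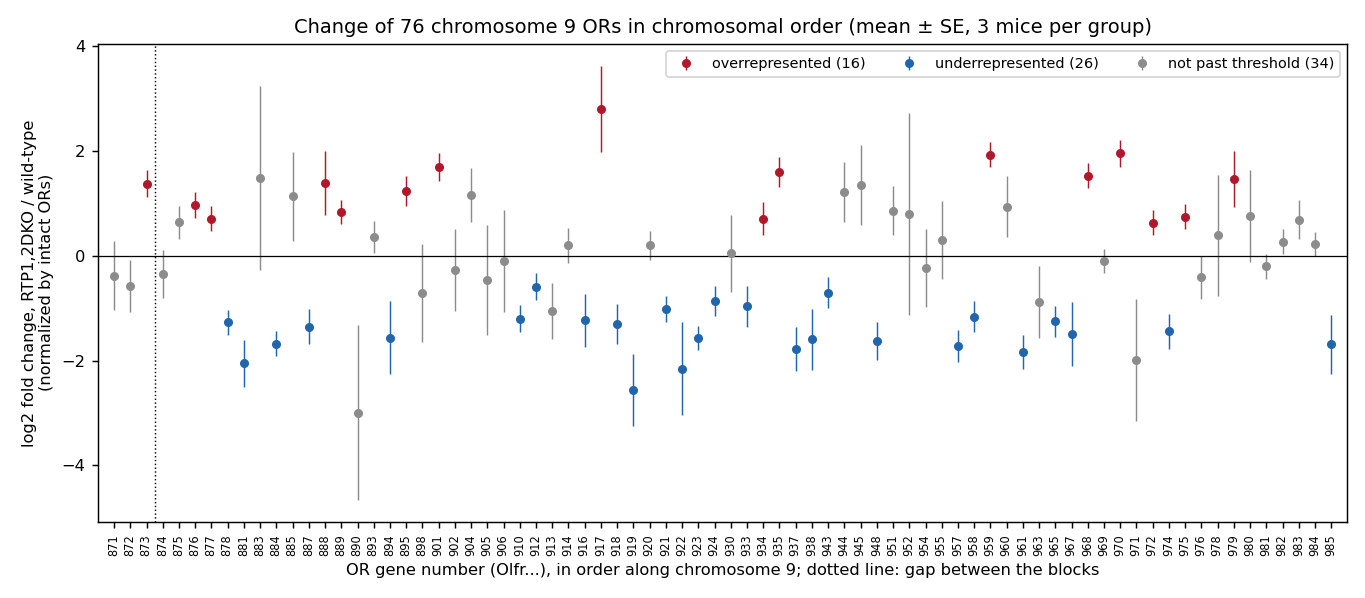
Log2 fold change of each of the 76 tested members (RTP1,2DKO over wild-type, normalized by intact ORs, points with standard errors, 3 mice per group) in their order along chromosome 9, coloured by the call. The 16 overrepresented and 26 underrepresented members lie among each other along the whole block.

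Calls in opposite directions could lie next to each other along the chromosome, but more neighbouring pairs shared a direction. Of 41 neighbouring pairs in the list of called members, 26 had the same direction. Among called pairs of members with proteins under 80% identical, at any distance, 51.6% had the same direction. Whether the neighbouring pairs exceed what the numbers of calls in each direction alone would give was not tested. Neighbours in this list can have uncalled genes between them, and Olfr873 and Olfr876 lie on either side of the gap between the blocks. The longest run of underrepresented members had 7 genes (Olfr918, Olfr919, Olfr921, Olfr922, Olfr923, Olfr924 and Olfr933). The longest runs of overrepresented ones had 3, and that of Olfr873, Olfr876 and Olfr877 crosses the gap. Of the overrepresented members 9 were on the plus strand and 7 on the minus strand, and of the underrepresented 17 and 9. The members that did not pass were less abundant: their median wild-type level was 1.08 FPKM (fragments per kilobase of effective length, scaled to the library total), against 4.44 for the overrepresented and 3.18 for the underrepresented, and 9 of the 34 had under 10 counts on average.

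Olfr959 was the most abundant member in wild-type mice, at 21.5 ± 6.29 FPKM (SD, n = 3). Its OR-normalized counts were 668, 860 and 797 in the wild-type mice and 2388, 3447 and 3048 in the RTP1,2DKO mice. Every RTP1,2DKO mouse was therefore far above every wild-type mouse. Olfr959 rose by 1.93 ± 0.24 (log2, SE) among intact ORs (adjusted p = 3.6e-09, edgeR quasi-likelihood), and it was the only member to rise in the comparison over all genes (0.94 ± 0.15, adjusted p = 0.0028).

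Olfr970 had 112.8, 55.1 and 59.6 OR-normalized counts in wild-type and 272.2, 304.5 and 310.1 in RTP1,2DKO mice. The groups did not overlap, and the log2 increase was 1.96 ± 0.26 (adjusted p = 1.5e-08). Over all genes it was 0.99 ± 0.27, with an adjusted p of 0.070 that became 0.023 with the replicate number as a block. Olfr968 had 101.9, 100.7 and 118.4 counts against 349.6, 290.5 and 286.1, and rose by 1.53 ± 0.24 (adjusted p = 3.3e-07). Olfr901 had 45.1, 59.3 and 47.5 counts against 158.7, 148.4 and 185.5, and rose by 1.69 ± 0.27 (adjusted p = 6.6e-07). Both were separated between the groups on either scale, but over all genes their log2 changes of 0.57 and 0.70 did not pass the test (adjusted p = 0.23 and 0.28).

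Olfr935 had 63.3, 55.1 and 67.4 OR-normalized counts in wild-type and 105.8, 233.5 and 222.3 in RTP1,2DKO mice, an increase of 1.60 ± 0.28 (adjusted p = 3.5e-06). RTP1,2DKO 1 was lower than the other two but still above all wild-type mice. The largest fitted increase, 2.81 ± 0.82 (adjusted p = 0.0029), was that of Olfr917, which rested on few reads. It had 4.4, 0.6 and 5.2 counts in wild-type and 11.6, 45.7 and 12.7 in RTP1,2DKO mice, and without RTP1,2DKO 2 the increase was 1.90 and no longer passed (adjusted p = 0.13). Olfr979 had 17.5, 6.5 and 14.7 counts against 40.0, 40.6 and 25.5, and rose by 1.47 ± 0.53 (adjusted p = 0.017), a call that was lost without wild-type 2 (adjusted p = 0.082) or RTP1,2DKO 1 (adjusted p = 0.055). Olfr888 had 17.5, 6.5 and 6.9 against 23.2, 34.3 and 24.1, and rose by 1.39 ± 0.61 (adjusted p = 0.048). Its groups did not overlap, but the call was lost with the replicate block (adjusted p = 0.057) and when any mouse except wild-type 1 was left out (adjusted p from 0.053 to 0.14).

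The other overrepresented members were Olfr873, Olfr895, Olfr876, Olfr889, Olfr975, Olfr877, Olfr934 and Olfr972, with log2 increases from 0.63 to 1.38. Among all 16 overrepresented members, 10 had a positive and 6 a negative log2 fold change over all genes, none of them past the test on that scale except Olfr959. Olfr972, for example, was called up among intact ORs at 0.63 ± 0.24 (adjusted p = 0.022), but the fold change was -0.36 over all genes and -0.17 when the libraries were scaled to their total on intact ORs. Its counts were 140.5, 212.7 and 209.1 against 228.3, 275.3 and 366.8, and the call was also lost without wild-type 1 (adjusted p = 0.13) or RTP1,2DKO 3 (adjusted p = 0.15). The fold changes of Olfr877, Olfr934 and Olfr975 also turned negative with that scaling (-0.05, -0.07 and -0.01).

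Olfr923 had the third highest wild-type level at 17.0 ± 2.04 FPKM (SD, n = 3), and 3.23 ± 0.874 in RTP1,2DKO mice. Its OR-normalized counts were 413.4, 366.2 and 567.6 in wild-type and 152.2, 140.8 and 160.0 in RTP1,2DKO mice. Every RTP1,2DKO mouse was far below every wild-type mouse. It fell by 1.57 ± 0.23 on the log2 scale (adjusted p = 1.4e-07) among intact ORs and by 2.52 ± 0.17 over all genes (adjusted p = 1.5e-05).

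Olfr884 was at 266.4, 304.0 and 317.0 OR-normalized counts in wild-type and 98.0, 90.1 and 87.8 in RTP1,2DKO mice. The spread within each group was small beside the difference, and the log2 change was -1.68 ± 0.24 (adjusted p = 8.2e-08). Olfr957 was at 100.4, 138.7 and 131.3 against 37.4, 43.1 and 31.2 (log2 change -1.72 ± 0.30, adjusted p = 2.8e-06). Olfr961 was at 106.3, 135.1 and 102.8 against 37.4, 41.9 and 17.0 (-1.83 ± 0.32, adjusted p = 3.5e-06). In each of these members the wild-type and RTP1,2DKO mice were separate.

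Olfr881 was at 48.8, 67.6 and 60.5 OR-normalized counts in wild-type and 16.8, 6.3 and 19.8 in RTP1,2DKO mice (-2.05 ± 0.45, adjusted p = 1.1e-04). Olfr937 was at 51.7, 77.0 and 69.1 against 10.3, 34.3 and 12.7 (-1.77 ± 0.42, adjusted p = 3.0e-04). The largest decrease among called members, -2.56 ± 0.68 (adjusted p = 0.0012), was that of Olfr919, at 21.8, 24.9 and 41.5 against 7.7, 1.3 and 5.7. All these groups were separate, and all passed without each mouse in turn.

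Olfr985, the last member along the chromosome, was at 32.0, 23.1 and 44.1 OR-normalized counts in wild-type and 11.6, 10.2 and 8.5 in RTP1,2DKO mice. The groups did not overlap, and the log2 change of -1.69 ± 0.56 passed (adjusted p = 0.0085), but not without wild-type 3 (adjusted p = 0.077). Olfr922 was at 9.5, 13.6 and 25.9 against 3.9, 0.0 and 7.1, a change of -2.15 ± 0.88 (adjusted p = 0.034) on few reads. Its call was lost without wild-type 2, wild-type 3, RTP1,2DKO 1 or RTP1,2DKO 2 (adjusted p from 0.057 to 0.20), and over all genes it did not pass (-3.06 ± 0.90, adjusted p = 0.10).

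The call was the same without each mouse in turn for 9 of the 16 overrepresented and 16 of the 26 underrepresented members. The members on either side of the threshold were Olfr894, with 22.6, 24.3 and 15.5 OR-normalized counts against 9.0, 7.6 and 4.2 (adjusted p = 0.049), and Olfr904, with 10.9, 10.7 and 29.4 against 27.1, 62.2 and 22.7 (adjusted p = 0.052). Olfr894 lost its call with the replicate block (adjusted p = 0.072) and when any of the 6 mice was left out (adjusted p from 0.053 to 0.15). The underrepresented members were for the most part down over all genes as well, with 24 called down on both scales. Olfr969 and Olfr981 were down over all genes only, and Olfr916 and Olfr922 among intact ORs only.

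**Figure D2:**
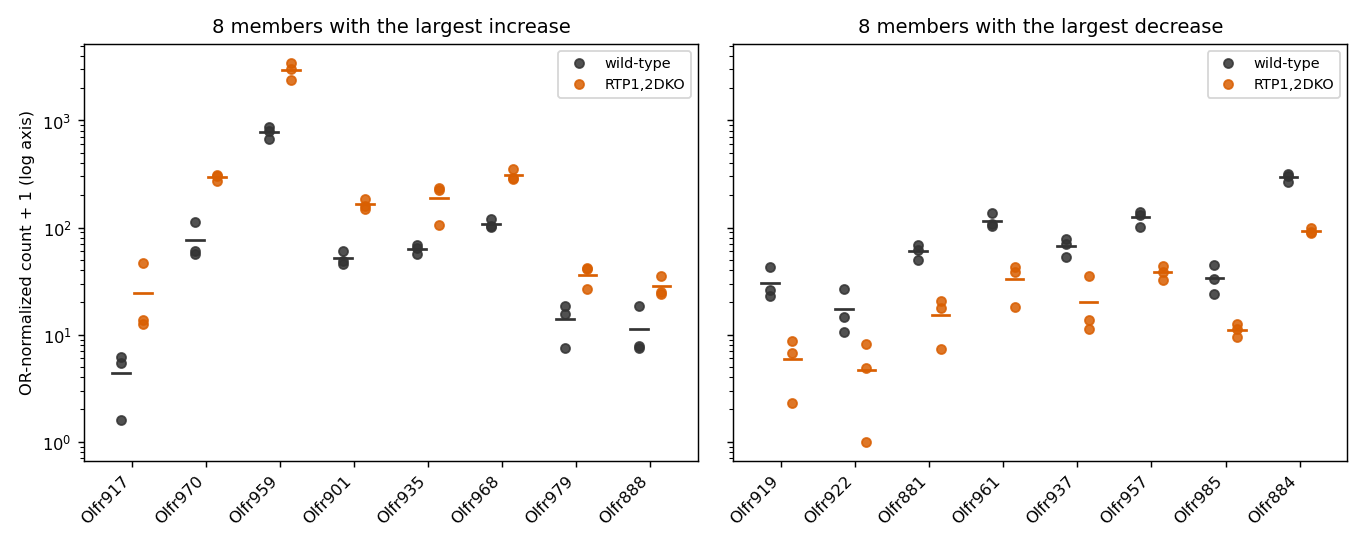
OR-normalized counts plus 1 (log axis) of the 8 members that rose most and the 8 that fell most, one point per mouse with the group mean as a line, for 3 wild-type and 3 RTP1,2DKO mice. The groups do not overlap in any of the 16 members, which the naming rule required, and Olfr917 and Olfr922 show the widest spread at the lowest counts.

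The members with the highest wild-type levels did not share a direction. After Olfr959, the order of mean wild-type FPKM was Olfr910 (18.8 ± 9.39), Olfr923 (17.0 ± 2.04), Olfr969 (16.2 ± 2.03), Olfr873 (8.52, 12.9 and 11.6 in the 3 mice) and Olfr972 (9.46 ± 2.75, SD, n = 3). The spread over mice was larger than the gaps between the first 4 of these 6. Olfr910 and Olfr923 fell, Olfr959, Olfr873 and Olfr972 rose among intact ORs, and Olfr969 did not pass the test among intact ORs with size factors, but was called down (-0.88, adjusted p = 8.5e-04) with scaling to their total. Over the 67 members with at least 10 counts on average, wild-type log2 FPKM and log2 fold change had a Pearson correlation of -0.082 and a Spearman correlation of -0.081, across genes that share the same 6 libraries.

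**Figure D3:**
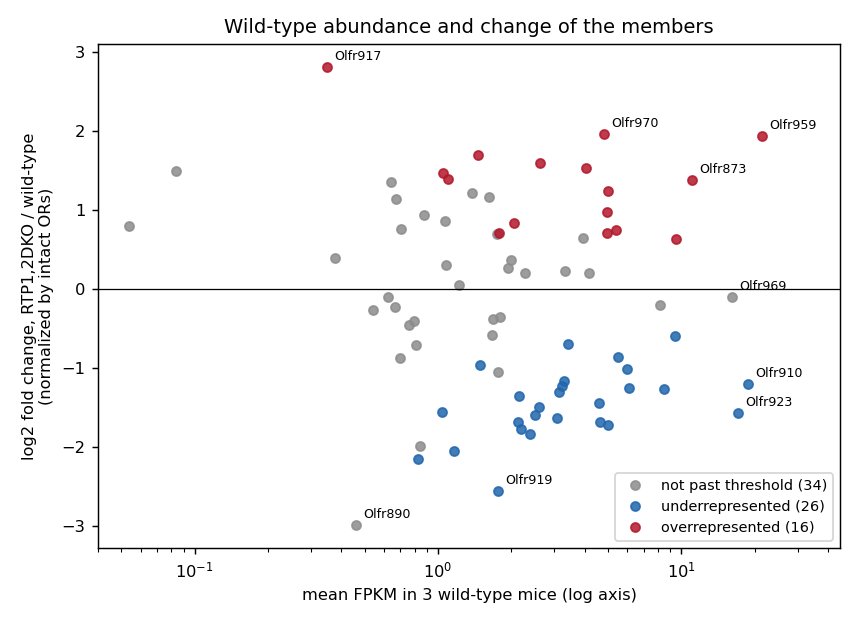
Log2 fold change of the 76 tested members (RTP1,2DKO over wild-type, normalized by intact ORs) against their mean FPKM in 3 wild-type mice (log axis), coloured by the call. Over- and underrepresented members are found at the same abundances, and the members that did not pass are mostly at the low end.

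Some well covered members differed little from the other ORs when normalized by size factors over intact ORs. Olfr969 had 254.0, 275.0 and 403.4 OR-normalized counts in wild-type and 255.4, 275.3 and 341.3 in RTP1,2DKO mice, a log2 change of -0.10 ± 0.23 (adjusted p = 0.74). The ranges overlapped almost completely, while over all genes Olfr969 fell by 1.06 ± 0.18 (adjusted p = 0.0040). Olfr981 likewise differed by -0.20 ± 0.24 among intact ORs (adjusted p = 0.49) and fell by 1.17 ± 0.21 over all genes (adjusted p = 0.0061). Olfr982 and Olfr984 differed by 0.27 ± 0.24 and 0.23 ± 0.23 among intact ORs and by -0.70 ± 0.20 and -0.74 ± 0.20 over all genes, and neither passed on either scale. With the TMM normalization of edgeR over intact ORs the differences stayed small. Olfr969, Olfr981, Olfr982 and Olfr984 were then at -0.14, -0.25, 0.23 and 0.19, and none passed (adjusted p from 0.39 to 0.61, edgeR). The differences did depend on how the libraries were scaled. With scaling to the total on intact ORs, Olfr969 (-0.88, adjusted p = 8.5e-04), Olfr981 (-0.99, adjusted p = 5.2e-04) and Olfr984 (-0.55, adjusted p = 0.040) were called down, and Olfr982 was at -0.50 (adjusted p = 0.074). The first member along the chromosome, Olfr871, had 48.8, 19.6 and 0.0 counts in wild-type and 23.2, 14.0 and 15.6 in RTP1,2DKO mice, which overlap (-0.38 ± 0.66, adjusted p = 0.64).

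As a sum, the 78 intact members held 3.304, 3.495 and 3.654% of the counts on intact ORs in the wild-type mice and 2.747, 3.182 and 2.994% in the RTP1,2DKO mice. The means were 3.485 ± 0.175% and 2.974 ± 0.218% (SD, n = 3). Every RTP1,2DKO mouse was below every wild-type mouse, and the two-sided exact permutation test gave p = 0.1, the smallest value that 3 against 3 mice can give. Olfr907, which lies inside the block but is not a member, is part of the denominator, and without it the shares were 4.449 ± 0.334% and 4.161 ± 0.499% (exact permutation p = 0.6), with overlap between the groups. In mice of the same replicate number the share was lower in the RTP1,2DKO mouse in each of the 3 pairs, 4.096 against 3.588%, 4.493 against 4.396% and 4.759 against 4.500% (paired exact permutation p = 0.25, the smallest that 3 pairs allow). The summed normalized counts of the members on the scale of all genes were 10615, 12477 and 11319 in wild-type and 8301, 8320 and 9137 in RTP1,2DKO mice (exact permutation p = 0.1). At least 10 estimated counts were found for 64 to 67 members in each wild-type mouse and for 53 to 59 in each RTP1,2DKO mouse.

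A pair of members carried a large part of this sum. Olfr873 and Olfr959 together held 20.91, 25.11 and 25.46% of the members' counts in wild-type mice and 43.35, 51.30 and 54.88% in RTP1,2DKO mice (exact permutation p = 0.1). The share of Olfr959 among intact OR counts was 0.3374 ± 0.0469% against 0.7477 ± 0.139% (p = 0.1, exact permutation), with no overlap. That of Olfr873 was 0.4956 ± 0.103% against 0.7411 ± 0.204% (p = 0.2, exact permutation), and here the groups overlapped. In OR-normalized counts Olfr873 was at 894, 1086 and 1461 against 2018, 2762 and 4196, a rise of 1.38 ± 0.25 (adjusted p = 6.1e-06), while over all genes it did not pass (0.40 ± 0.20, adjusted p = 0.49). Without both genes, a choice made after their values were seen, the members held 2.651 ± 0.0622% of intact OR counts in wild-type and 1.486 ± 0.117% in RTP1,2DKO mice (exact permutation p = 0.1).

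**Figure D4:**
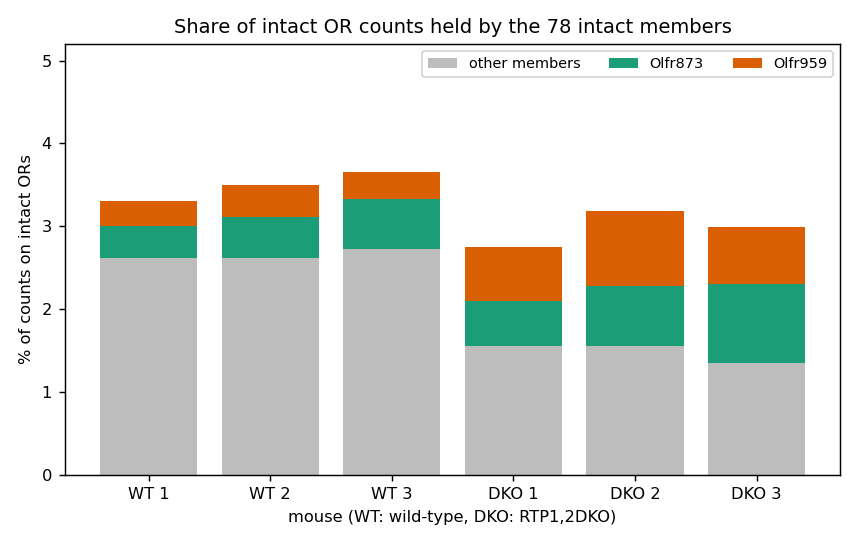
Share of the counts on intact ORs held by the 78 intact members in each of the 3 wild-type (WT) and 3 RTP1,2DKO (DKO) mice, stacked as Olfr959, Olfr873 and the other members. The total is 3.304 to 3.654% in wild-type and 2.747 to 3.182% in RTP1,2DKO mice, and the part of Olfr959 is larger in every RTP1,2DKO mouse.

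Related receptors could go in opposite directions. Among the 3003 pairs of the 78 intact proteins, identity ranged from 32.7 to 96.8% (median 56.1%), and 76 pairs among 49 members were at least 80% identical. With size factors over intact ORs, both members were called in 26 of these pairs, with the same direction in 14 and opposite directions in 12. The opposite calls depended in part on that normalization. With scaling to the total on intact ORs, Olfr901, Olfr917, Olfr968 and Olfr970 were still called up. The rising members of the remaining opposite pairs, Olfr888, Olfr889, Olfr895 and Olfr972, were not (adjusted p = 0.41, 0.84, 0.16 and 0.56, edgeR). With the size factors, 53.8% of the called pairs had the same direction, and the share was 51.6% among the 835 called pairs under 80% identity. Pairs share members and are not independent.

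Olfr910 and Olfr912, whose proteins are 96.4% identical, had the highest identity of the pairs with both members called, and both fell. Olfr910 was at 198.7, 300.4 and 213.4 OR-normalized counts in wild-type and 85.1, 90.1 and 136.0 in RTP1,2DKO mice (-1.20 ± 0.26, adjusted p = 8.4e-05), with no overlap. Olfr912 was at 241.7, 148.1 and 238.4 against 148.4, 173.8 and 93.5 (-0.59 ± 0.26, adjusted p = 0.047). Its groups overlapped because of wild-type 2, and its call was lost without wild-type 1, wild-type 3, RTP1,2DKO 1 or RTP1,2DKO 3 (adjusted p from 0.071 to 0.31). Over all genes both fell, by 2.20 ± 0.27 (adjusted p = 4.0e-04) and 1.54 ± 0.26 (adjusted p = 0.0034). Only 76.86% of the 31-base words of Olfr910 and 87.08% of those of Olfr912 are unique to the gene, so the split of reads between close copies is uncertain.

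The other pairs of highest identity gave no comparison. Olfr952 (96.8% identical to Olfr955) had a mean of 1.0 counts, and Olfr926 (95.1% identical to Olfr924) had none in any mouse, whereas Olfr924 was at 112.8, 124.4 and 155.5 against 68.4, 39.3 and 109.0 (-0.86 ± 0.29, adjusted p = 0.011). Its groups did not overlap, but the call was lost without wild-type 3 (adjusted p = 0.070) or RTP1,2DKO 2 (adjusted p = 0.13). The largest differences in fold change within similar pairs all involved Olfr890, which had a mean of 3.2 counts. Against Olfr901, Olfr883 and Olfr888 its log2 fold change of -2.99 differed by 4.68, 4.48 and 4.39, but Olfr890 itself did not pass the test (adjusted p = 0.12).

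Better covered pairs with opposite calls were looked for after the values were seen. Olfr884 and Olfr889, with proteins 87.7% identical and means of 242.5 and 242.8 counts, are the best covered of them. Olfr889 was at 176.9, 162.4 and 192.6 OR-normalized counts in wild-type and 366.4, 290.5 and 288.9 in RTP1,2DKO mice, the reverse of the fall of Olfr884 given above. Its log2 change was 0.83 ± 0.23 (adjusted p = 0.0017) against -1.68 ± 0.24 for Olfr884. Over all genes Olfr889 differed by -0.12 ± 0.20 (adjusted p = 0.89), while Olfr884 fell by 2.65 ± 0.20 (adjusted p = 2.0e-05). With scaling to the total on intact ORs, Olfr889 was at 0.06 (adjusted p = 0.84, edgeR) and Olfr884 at -2.46 (adjusted p = 6.7e-13). The opposite calls of this pair therefore held only with size factors over intact ORs.

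Olfr887 and Olfr901 (82.5% identical) had 91.8 and 98.0 counts on average and log2 changes of -1.35 ± 0.33 (adjusted p = 4.1e-04) and 1.69 ± 0.27. Both kept these calls without each mouse in turn. They also kept them with scaling to the total on intact ORs, at -2.13 (adjusted p = 9.5e-08, edgeR) and 0.90 (adjusted p = 0.0052). Over all genes Olfr887 fell (-2.33 ± 0.43, adjusted p = 0.0067), but Olfr901 did not pass (adjusted p = 0.28). Olfr967 and Olfr970 (85.8% identical) also had opposite calls, at -1.49 ± 0.61 (adjusted p = 0.035) and 1.96 ± 0.26, although Olfr967 had 21.7 counts on average and lost its call when any mouse except RTP1,2DKO 1 was left out (adjusted p from 0.068 to 0.10). Olfr968 and Olfr972 (92.0% identical) both rose among intact ORs. The differences within pairs were not tested as such.

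**Figure D5:**
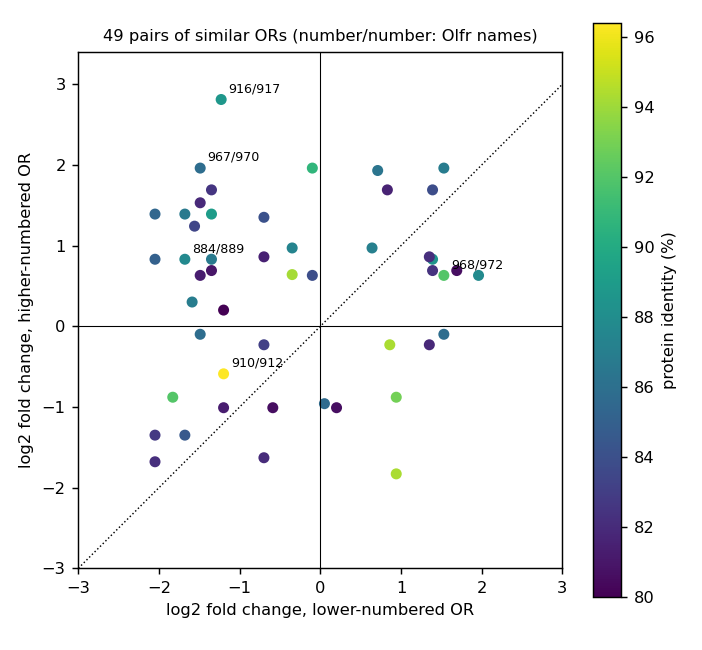
Log2 fold changes (RTP1,2DKO over wild-type, normalized by intact ORs) of the 2 members of each of the 49 pairs with at least 80% protein identity and at least 10 counts on average in both members, coloured by identity, with the line of equal change dotted. Pairs lie in all 4 quadrants, with Olfr910 and Olfr912 in the lower left and Olfr884 and Olfr889 in the upper left.

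The reads were not equally specific to the members. Between 42.8 and 100% of the 31-base words of a member were unique to it (median 90.2%), and 18 members had at least 95% unique words. Of the 17 of these that were tested among intact ORs, 4 were overrepresented (Olfr873, Olfr877, Olfr934 and Olfr959) and 9 underrepresented. These 18 held 1.629 ± 0.159% of intact OR counts in wild-type and 1.784 ± 0.236% in RTP1,2DKO mice (exact permutation p = 0.3), the reverse of the direction of the full sum. Both Olfr873 and Olfr959 are among the 18, and the other 16 held 0.7957 ± 0.0671% in wild-type and 0.2952 ± 0.0342% in RTP1,2DKO mice (exact permutation p = 0.1), with no overlap.

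The genes that act with ORs were read from the same comparison over all genes. Of 31 genes listed for receptor transport, transduction, desensitization, maturity, OR choice and the unfolded protein response, 30 were tested (Adrbk2 is not a name in the files), 13 fell, none rose and 17 did not pass, with a median log2 fold change of -0.36, against 3.15% of all genes called down. The 13 include the deleted genes Rtp1 and Rtp2, without which 11 of 28 fell. With the replicate block 15 of the 30 passed, Gng13 (adjusted p = 0.029) and Gnb1 (adjusted p = 0.036) being the additional ones. Among the transport genes Ric8b, which helps to fold the olfactory G protein, fell by 0.92 ± 0.14 (adjusted p = 0.0016), and Reep1 by 0.78 ± 0.13 (adjusted p = 0.0036). Of the transduction genes 7 of 10 fell (9 with the block), among them Adcy3, the adenylyl cyclase (by 1.41 ± 0.13, adjusted p = 4.8e-05), and Cnga2, a channel subunit (by 1.05 ± 0.14, adjusted p = 6.2e-04). None of the 7 genes of OR choice passed the test. Lhx2, a homeodomain factor needed for OR expression, differed by 0.19 ± 0.15 (adjusted p = 0.73), and Ldb1, its cofactor, by 0.04 ± 0.17 (adjusted p = 0.97).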

How the data were processed

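Libraries were made from Trizol-extracted RNA of the dissected olfactory mucosa (olfactory epithelium in the labels) with a stranded kit and sequenced on an Illumina HiSeq. The authors quantified transcripts with kallisto (version not given in the sources used here) against UCSC mouse transcripts in which the OR genes had been replaced by extended OR models (mm10 in the labels) and deposited, per transcript, estimated counts, effective lengths and TPM. The deposited TPM values were not used. Estimated counts were summed per gene and rounded. FPKM was obtained by dividing each transcript's count by its effective length and by the library total.

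Genes counted at least 1 time in any of the mice were tested with the quasi-likelihood test of edgeR 4.0.16 in R 4.3.3, with size factors of DESeq2 1.42.0, over all genes and over intact ORs, and Benjamini-Hochberg adjustment. Sums were compared by two-sided exact permutation tests. The test was tried on simulated counts, where it recovered 65% of intact ORs changed by 1 log2 unit and 99% of those changed by 2 in the comparison of intact ORs (1076 genes). There, 100 ORs were changed at each size, as many raised as lowered, and dispersion followed the trend over genes. Only better covered ORs were changed, so these shares do not apply to members with few counts. They also do not apply to data where 55.0% of intact ORs were called. Python 3.11.15 was used for the rest. Protein identity and unique words came from GENCODE transcripts, not from the study's extended OR models.

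As an assumption, replicate numbers were treated as pairing the mice. The deviations from group means of mice with the same number correlated at 0.139, 0.179 and 0.103 over 18133 genes (all above 0.1). Over 952 intact ORs the values were 0.134, 0.132 and 0.0292, and the last is below 0.1. Mice with different numbers correlated at -0.219 to 0.0934 over all genes and at -0.129 to 0.0111 over intact ORs. The value of 0.0934, for wild-type 1 and RTP1,2DKO 3, is close to the lowest of 0.103. Whether the values differ from those of unpaired mice was not tested. Nothing in the labels states this pairing, and no source says which mice were littermates of each other. The main fits had no block, since the study's methods name none. P-values of edgeR set the difference between the groups against the spread between these mice, moderated over genes. Those of the exact permutation tests rank the observed difference among all relabellings of the mice.

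Members and gene lists were chosen with earlier results of these data known. Named by rule were the 8 members that rose most and the 8 that fell most among those called with at least 10 counts and separate groups, the 6 most abundant, the 4 closest to no change with at least 100 counts, Olfr922 and Olfr923, the 3 most different and the 3 most identical pairs, the first and last along the chromosome, and those next to the threshold. Alternatives were other normalizations, filters and tests, the replicate block, each mouse left out and members with at least 95% unique words.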

Additional observations from a re-analysis of the deposited data

How the results depend on the processing

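Over the 33 tested members named by rule, 765 alternatives kept the direction and the side of the threshold, 41 lost the call, 27 gained it and 21 reversed the sign. Over all genes, the members called up were 1 in the main comparison and 2 with the DESeq2 Wald test, the edgeR exact test and the replicate block, and 4 when p-values were adjusted over intact ORs. Those called down were 26, 30, 30, 26 and 39. Leaving out single mice gave 1 to 2 up (2 without wild-type 1) and 23 to 26 down. Among intact ORs, 14 members were up and 26 down with TMM normalization, and 15 and 26 with the edgeR expression filter. The DESeq2 Wald test gave 15 up and 22 down there. Leaving out single mice gave 13 to 17 up and 18 to 22 down among intact ORs. The members called up were 7 with scaling to the total on intact ORs, and 7 without Olfr907 in that total, a choice made after seeing the data. Restricting to members with at least 95% unique words left 17 tested, of which 4 were up and 9 down, and turned the summed share from -0.51 to 0.155 percentage points (exact permutation p = 0.3). Without Olfr873 and Olfr959, left out after seeing the data, the difference over the unique members was -0.50 (p = 0.1, exact permutation). With the replicate block 15 members were up and 24 down among intact ORs, 2 up and 26 down over all genes, and calls changed for 3 members in each. Olfr888, Olfr894 and Olfr916 lost theirs among intact ORs. Over all genes Olfr894 lost its call, and Olfr970 and Olfr976 gained one. For the summed share and counts, the block (chosen after seeing the data) gave the same differences with an exact permutation p of 0.25, the smallest that 3 pairs allow. Signs changed with scaling to the total on intact ORs in 15 of all tested members, 4 of them overrepresented (Olfr877, Olfr934, Olfr972 and Olfr975). With the block Olfr952 was at 0.23 over all genes and Olfr871 at 0.19 among intact ORs. With scaling to the total on intact ORs Olfr955, Olfr972, Olfr982 and Olfr984 were at -0.49, -0.17, -0.50 and -0.55, and at -0.35, -0.03, -0.38 and -0.42 without Olfr907. Leaving out each mouse gave, over all genes, -0.30 to 0.72 for Olfr904, -0.91 to 3.16 for Olfr952 and -3.22 to 1.44 for Olfr883. Among intact ORs it gave -0.94 to 0.79 for Olfr871, -0.20 to 0.14 for Olfr969, -2.95 to 2.30 for Olfr883, -0.12 to 3.59 for Olfr952 and -0.05 to 0.65 for Olfr955. The cause of these shifts was not tested. Of the 79 members, 12 had under 10 counts on average, and none of these passed in the main comparisons. With scaling to the total on intact ORs, Olfr890 (adjusted p = 0.042, edgeR) and Olfr971 (adjusted p = 0.036) passed.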

Other observations

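A stretch of the block stood out in a single wild-type mouse. In 5 of the 67 intact members with at least 10 counts on average (7.46%), wild-type 2 was under 0.25 of both other wild-type mice in OR-normalized counts, against 7 of 960 intact ORs (0.729%). The threshold was chosen after the values were seen. The same was found in 0 members for wild-type 1, 1 for wild-type 3, and 0, 2 and 0 for RTP1,2DKO 1, 2 and 3. The 5 members were Olfr898, Olfr902, Olfr913, Olfr916 and Olfr917, and the stretch from the first to the last of them is chr9:38348411-38665842, around Olfr907. These bounds were drawn from the 5 members themselves, so that all 5 lie inside was fixed by that choice. Of the 7 intact ORs 6 lay there, with Olfr250 as the one that is not a member.

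Olfr913 was at 77.2, 3.6 and 85.5 OR-normalized counts in the wild-type mice and at 29.7, 8.9 and 41.1 in the RTP1,2DKO mice. Olfr916 was at 78.6, 6.5 and 62.2 against 20.6, 20.3 and 21.2. In both, wild-type 2 was below all RTP1,2DKO mice. Olfr250, which is not a member, was at 187.1, 26.7 and 203.9 against 19.4, 20.3 and 31.2, so that wild-type 2 lay within the RTP1,2DKO range. The stretch held 10 members with at least 10 counts on average, and the other 5 were not low in wild-type 2: Olfr901, for instance, was at 45.1, 59.3 and 47.5.

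Both called members of the 5 kept their calls without wild-type 2. Olfr916 was underrepresented at -1.23 ± 0.51 (adjusted p = 0.036, edgeR) with all mice and at -1.75 (adjusted p = 3.7e-04) without wild-type 2. It lost the call without wild-type 1 (adjusted p = 0.34), wild-type 3 (adjusted p = 0.18), RTP1,2DKO 1 (adjusted p = 0.078) or RTP1,2DKO 3 (adjusted p = 0.071). Olfr917 was overrepresented without wild-type 2 as well (2.29, adjusted p = 0.020).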
